A study of Homo sapiens with 12 samples.

Results

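Sacubitrilat was added to endothelin-1 in cultured human cardiomyocytes, and the cultures given both compounds were compared with those given endothelin-1 alone. The comparison took 6 of the 12 libraries of the series, 3 with 10 nM endothelin-1 and 3 with 10 nM endothelin-1 plus 16 µM sacubitrilat, all collected after 48 h and grouped by their titles. The other 6 libraries, 3 with vehicle and 3 with 16 µM sacubitrilat alone for the same 48 h, served as reference levels and entered the same model. All cells came from WTC-mEGFP-ACTN2-cl85, an established line of human induced pluripotent stem cells in which 1 of the 2 ACTN2 copies, encoding the alpha-actinin of sarcomeres, carries a green fluorescent tag. Every group therefore shares this tag, 1 genetic background and 1 clone, and all cells had been differentiated and then enriched for cardiomyocytes in lactate medium. Each library came from a separate culture, per the series' design text, and RNA was read as counts of the 3′ ends of polyadenylated transcripts.

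Endothelin-1 is a vasoconstrictor peptide that signals through Gq-coupled receptors, calcium and calcineurin, and it drives enlargement of cardiomyocytes together with a fetal gene programme that includes the natriuretic peptides. Sacubitrilat is the active form of sacubitril and blocks neprilysin, a membrane peptidase that cleaves natriuretic peptides and also endothelin-1. Natriuretic peptides act on receptors that make cyclic GMP. The series lists this contrast among its primary ones, and it asks what neprilysin inhibition does to transcripts under the hypertrophic stimulus.

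Groups follow the titles, but a second description line of the 3 endothelin-1 libraries names sacubitrilat, and that of the 3 sacubitrilat libraries names endothelin-1. Against the libraries titled sacubitrilat, both compounds gave 3925 called genes (35%), 1929 higher (17.2%) and 1996 lower (17.8%). The libraries were of very unequal size. Total counts were 1781653, 1473744 and 1719492 in endothelin-1 replicates 1 to 3, and 87281, 158791 and 134950 in combined replicates 1 to 3, a 13.1-fold ratio of the summed counts. The 3 vehicle libraries held 80844 to 316932 counts and the 3 sacubitrilat libraries 1268308 to 1953122. A count of 0 in all 3 libraries allowed up to 0.603 CPM (a gene's count scaled to a fixed library total) with endothelin-1 and up to 7.87 CPM with both compounds (3 counts over the group, counting error only). When all 6 libraries were thinned at random to 86862 counts, 11453 to 11556 genes had at least 1 count with endothelin-1 alone, and 13120 to 13884 did with both compounds. Long noncoding RNA took 5.19% to 5.29% of counts with endothelin-1 and 9.22% to 10.9% with both, pseudogenes 1.91% to 1.95% and 2.92% to 3.08%, and mitochondrial ribosomal RNA 6.03% to 6.06% and 1.59% to 3.54%. The part of library size and of these shares in the gene results was not tested, and the compared groups cannot be told apart from high and low library totals. The combined libraries also varied more among themselves. Replicate differences per gene were 1.18 to 1.25 times counting noise between endothelin-1 libraries and 3.8 to 20.2 times between combined libraries, with combined replicate 1 in the 2 highest pairs.

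**Figure D1:**
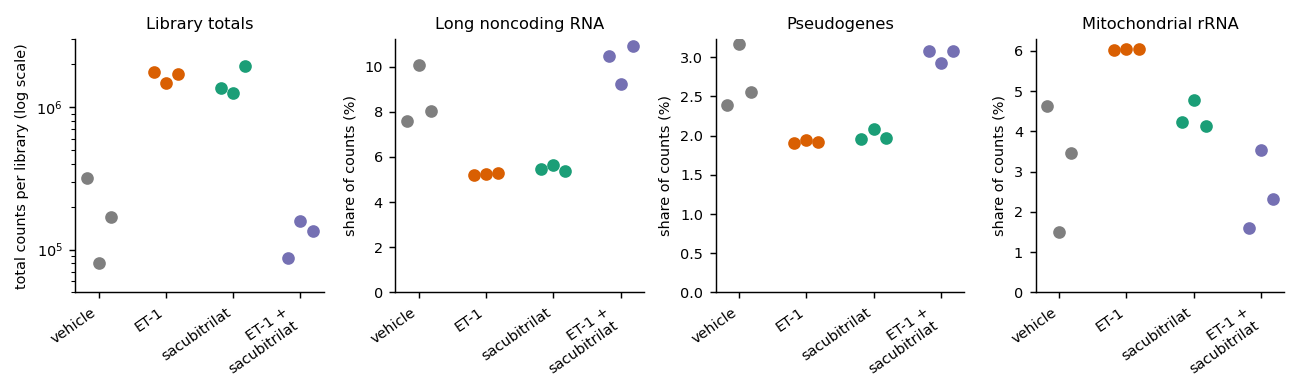
Total counts per library on a log scale (first panel) and the share of counts, in percent, of long noncoding RNA, pseudogenes and mitochondrial ribosomal RNA (other panels), with 1 point per library and 3 libraries in each of the 4 groups. The vehicle and combined libraries held 80844 to 316932 counts, the others 1268308 to 1953122, and long noncoding RNA took 9.22% to 10.9% of counts in the combined libraries.

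Of 11203 genes tested, 3854 (34.4%) were called at an adjusted p under 0.05 (edgeR quasi-likelihood test, Benjamini-Hochberg), 1859 (16.6%) higher and 1995 (17.8%) lower when sacubitrilat was present. The median log2 fold change over all tested genes was -0.23, and log2 fold changes below are combined minus endothelin-1, given ± SE. Counts of list members called higher or lower below are to be read beside these shares and this median. With no filter on low counts, 1537 genes were higher and 3302 lower. At matched depth, 1409 genes could be tested in more than 10 of 20 random thinnings. The filter keeps a gene that is well counted in as many libraries as a group holds. A low-count gene can thus enter a test through the group where it is higher. Of the 1409 genes, 654 (46.4%) were called, 355 (25.2%) were higher and 299 (21.2%) lower, with a median log2 fold change of 0.05. Though 0 genes were called in opposite directions at the 2 depths, the thinned counts are random parts of the same libraries. Like directions were thus largely set in advance and are no separate support. Thinning evens out totals but leaves other differences between small and large libraries in place. Of 115 named genes called at full depth, 88 could be tested this way and 3 were not called, among them ACTA1 and COL1A1. A weighted model that gives each group its own spread called 3154 (32.4%) of 9737 genes, 1736 (17.8%) higher and 1418 (14.6%) lower (limma-voom, Benjamini-Hochberg). In 643 genes (5.74%) the edgeR, matched-depth and weighted calls were all made and the 2 groups did not overlap in CPM, 347 of them higher (3.1%) and 296 lower (2.64%). Groups that did not overlap were common, at 52.5% of all tested genes.

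**Figure D2:**
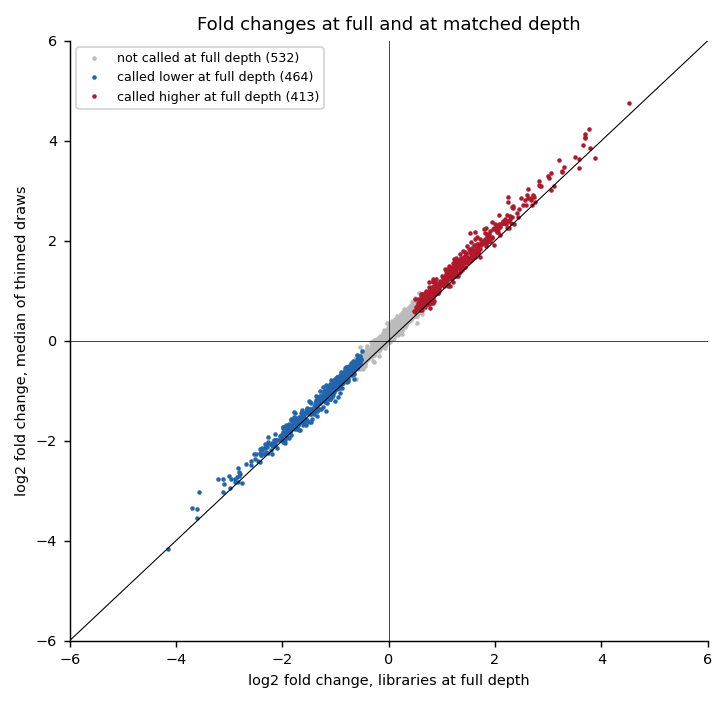
Log2 fold change of endothelin-1 plus sacubitrilat against endothelin-1 at full depth (x axis) and the median over 20 thinnings to 86862 counts (y axis), with 1 point for each of the 1409 genes tested in more than 10 of the thinnings and the line of equality. The 413 genes called higher and the 464 called lower at full depth lie on the same side of 0 after thinning, which drawing from the same libraries largely sets in advance.

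Among the panel genes, NPPA, NPPB, ACTA2, ANKRD1 and CCN2 were all several-fold lower with both compounds, TGFB1 was higher, and the myosin heavy chains MYH6 and MYH7 did not pass. Of 28 listed targets of the transcriptional regulators SRF, MRTF, YAP and TEAD, 26 were tested, 19 were lower and 2 higher, with a median of -1.49 beside -0.23 for all genes. At matched depth 10 of 14 were lower and 2 higher, beside 21.2% and 25.2% of all genes. The promoters of 3 of the lower members are shown because several carry GGAATG, the core letters bound by TEAD factors, the DNA-binding partners of YAP. Each sequence is the 250 bases before the annotated start, 5′ to 3′ on the gene's strand, from RefSeq (GRCh38.p14), with GGAATG on either strand (CATTCC on the other) in capitals.

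CCN2, minus strand, chr6:131951373-131951622: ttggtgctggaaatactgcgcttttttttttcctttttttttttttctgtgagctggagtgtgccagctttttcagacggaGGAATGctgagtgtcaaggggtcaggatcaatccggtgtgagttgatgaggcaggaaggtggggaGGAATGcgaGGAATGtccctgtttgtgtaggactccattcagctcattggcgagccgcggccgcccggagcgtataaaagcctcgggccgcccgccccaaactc
ANKRD1, minus strand, chr10:90921088-90921337: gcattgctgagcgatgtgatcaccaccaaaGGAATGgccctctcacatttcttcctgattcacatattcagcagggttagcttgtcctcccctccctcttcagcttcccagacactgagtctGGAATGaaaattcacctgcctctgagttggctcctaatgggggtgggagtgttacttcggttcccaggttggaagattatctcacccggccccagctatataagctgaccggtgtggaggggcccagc
ACTA2, second RefSeq start, minus strand, chr10:88952774-88953023: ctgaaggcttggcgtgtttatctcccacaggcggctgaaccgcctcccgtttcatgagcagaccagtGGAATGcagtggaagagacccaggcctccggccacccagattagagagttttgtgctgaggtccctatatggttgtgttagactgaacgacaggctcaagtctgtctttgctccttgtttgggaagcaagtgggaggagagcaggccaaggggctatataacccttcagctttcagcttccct

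CCN2 holds the letters 3 times, starting 169, 104 and 95 bases before the start, ANKRD1 holds them 2 times and this ACTA2 start holds them 1 time. The other ACTA2 start and the CNN1 promoter hold none. Over all 35116 RefSeq promoter windows of the same 250 bases, 11.9% hold at least 1 copy, 0.94% at least 2 and 0.083% at least 3. Of 43 windows for the 21 list members matched by symbol, 23.3% hold a copy. Across the whole comparison the share was 9.98% for windows of genes called lower, 10.5% for genes called higher and 9.82% for genes not called. A match describes letters in this window and not a bound site.

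CCN2, which encodes the matricellular connective tissue growth factor (ENSG00000118523, chromosome 6, 131948176 to 131951373 on GRCh38), stood at 441, 445 and 491 CPM in endothelin-1 replicates 1 to 3 and at 0, 44.1 and 22.2 CPM in combined replicates 1 to 3. Every combined library was below every endothelin-1 library. The combined libraries held 10 counts in all, and the 0 in combined replicate 1 allowed up to 34.4 CPM. The vehicle libraries held 104, 49.5 and 82.0 CPM, above the combined values, but the gene was not called against vehicle (-1.76 ± 0.54, edgeR adjusted p = 0.17). The gene fell by 4.16 ± 0.35 on the log2 scale (edgeR adjusted p = 1.14e-11, n = 3 per group). This was the largest drop among genes with at least 50 CPM, no overlap and also a call at matched depth. Without combined replicate 2 the change was -5.32.

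ACTA2, the smooth muscle actin gene that is also active in immature and stressed cardiomyocytes (ENSG00000107796, chromosome 10, 88935074 to 88991339), stood at 994, 1010 and 1007 CPM with endothelin-1 and at 160, 167 and 215 CPM with both. The groups were far apart, and the combined level was within the vehicle range of 86.6 to 306 CPM. It fell by 2.51 ± 0.26 (5.69-fold, edgeR adjusted p = 1.73e-09), or by 1.44 with the titles exchanged. ANKRD1, a stretch-induced repressor protein of the titin complex (ENSG00000148677, chromosome 10, 90912096 to 90921276), went from 1148, 1227 and 1124 CPM to 298, 441 and 245 CPM, a change of -1.84 ± 0.27 (edgeR adjusted p = 1.69e-06). CNN1, which encodes calponin of smooth muscle thin filaments, stood at 628 to 661 CPM against 68.7 to 230 CPM (-1.91 ± 0.30). These 3 genes moved alike, but members of the same list did not all do so. MYL9, a regulatory myosin light chain that MRTF drives in smooth muscle, was higher at 8009, 5082 and 5624 CPM against 2837, 2648 and 2459 CPM (1.17 ± 0.26, edgeR adjusted p = 5.4e-04). TAGLN, another smooth muscle gene, overlapped between groups (538 to 1693 against 1664 to 1684 CPM) and did not pass (-0.45 ± 0.31, edgeR adjusted p = 0.27).

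**Figure D3:**
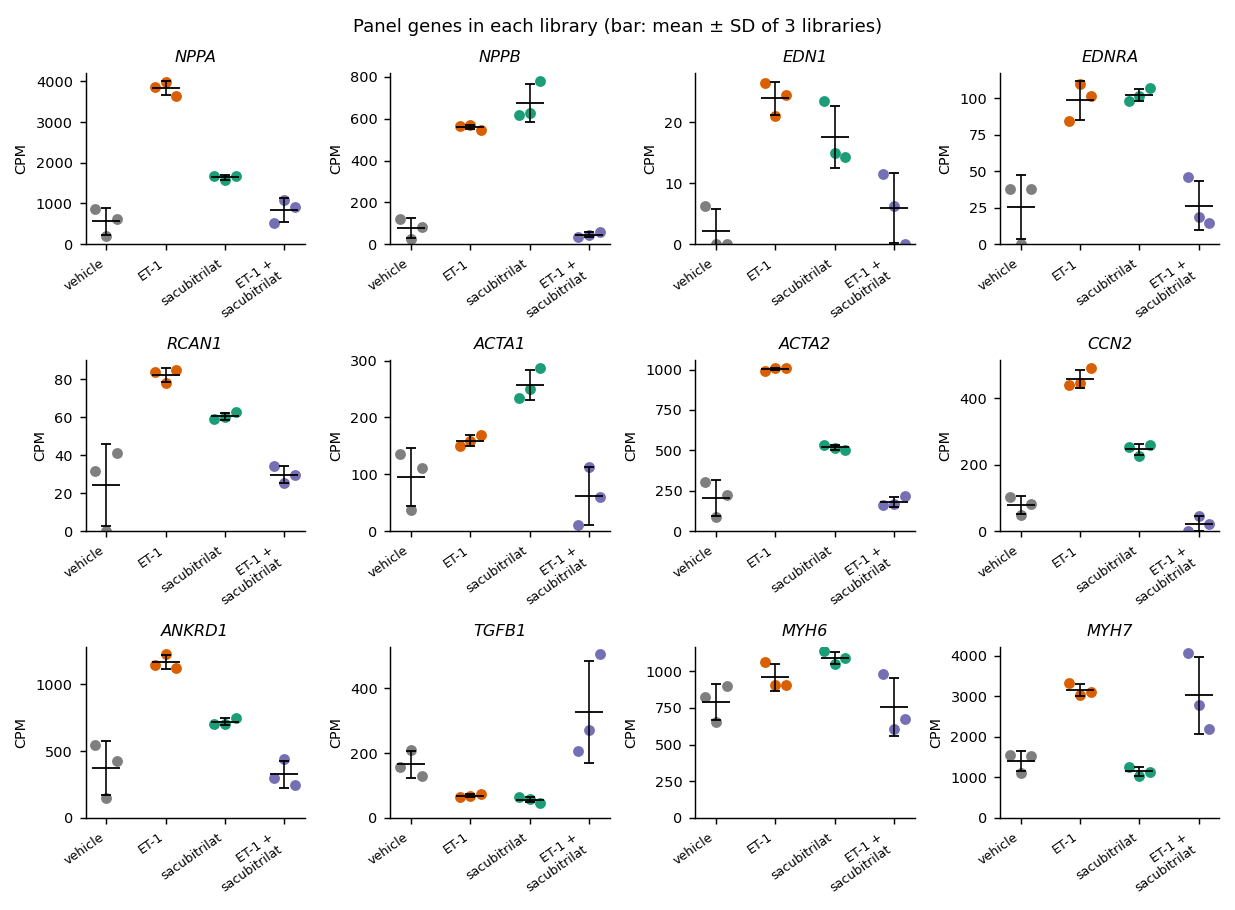
CPM of 12 named genes in each of the 12 libraries, with 1 point per library and the mean ± SD of 3 libraries in each group. NPPA, NPPB, EDN1, EDNRA, RCAN1, ACTA1, ACTA2, CCN2 and ANKRD1 are lower in every combined library than in every endothelin-1 library, TGFB1 is higher, and MYH6 and MYH7 overlap.

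The natriuretic peptide genes, whose products neprilysin degrades, both fell. NPPA, the gene of atrial natriuretic peptide (ENSG00000175206, chromosome 1, 11845709 to 11848345), stood at 3866, 3992 and 3650 CPM with endothelin-1 and at 516, 1077 and 919 CPM with both. NPPB, the gene of brain natriuretic peptide (ENSG00000120937, chromosome 1, 11857464 to 11858931), stood at 564, 568 and 547 CPM and at 34.4, 44.1 and 59.3 CPM. In both genes the 2 groups were apart by several-fold, and the combined libraries fell within (NPPB) or overlapped with (NPPA) the vehicle range. NPPA fell by 2.20 ± 0.31 (4.59-fold, edgeR adjusted p = 8.53e-07) and NPPB by 3.60 ± 0.33 (12.1-fold, edgeR adjusted p = 6.88e-11). At matched depth the changes were -2.09 and -3.37. With the titles exchanged, NPPA changed by only -0.86 (edgeR adjusted p = 0.027). The combined libraries held 18 NPPB counts in all, and reads of NPPA and its antisense neighbour are not surely separable.

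In the list of natriuretic peptide and cyclic GMP genes, 12 of 22 were tested, 6 were lower, none higher and 6 did not pass, with a median of -2.07. FURIN, which encodes a protease of the secretory pathway that processes peptide precursors, stood at 163 to 179 CPM with endothelin-1 and 22.2 to 44.1 CPM with both (-2.45 ± 0.35, edgeR adjusted p = 9.1e-07). GUCY1A1, a subunit of the soluble guanylate cyclase that nitric oxide activates, stood at 405 to 425 CPM and 51.6 to 132 CPM (-2.13 ± 0.29, edgeR adjusted p = 3.5e-07). Without combined replicate 2 the changes were -3.15 for FURIN and -2.77 for GUCY1A1. MME, the gene of neprilysin itself, had 20 counts over the endothelin-1 group and 3 over the combined group. The ratio of endothelin-1 to both, per total, was 0.51 with a 95% exact counting interval of 0.15 to 2.68, so a change was not detectable at this depth. NPR1, the receptor of both peptides, had 15 counts and 1 count, and NPR3, the clearance receptor, had 32 and 0, which lies under the floor of the combined group.

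Of 30 listed genes of endothelin and Gq signalling, 19 were tested, 7 were lower and none higher (median -1.18). At matched depth only 1 of them, RGS5, could be tested, and it was lower. EDNRA, the endothelin A receptor of muscle cells, stood at 84.2, 110 and 102 CPM with endothelin-1 and 45.8, 18.9 and 14.8 CPM with both. The groups did not overlap, and the gene fell by 2.08 ± 0.44 (edgeR adjusted p = 3.1e-04). ECE1, which encodes the enzyme that releases mature endothelin-1, fell by 1.74 ± 0.36, the G protein gene GNA11 by 1.18 ± 0.32, and RGS5, a brake on Gq and Gi signals, by 1.57 ± 0.31. GNA11 did not pass in the weighted model (limma-voom adjusted p = 0.063). The endothelin-1 gene itself, EDN1, had 120 counts against 2, a per-total ratio of 4.58 with a 95% exact counting interval of 1.24 to 38.3. Its call rests on single libraries, since the edgeR adjusted p of 0.030 became 0.127 without combined replicate 3 and 0.066 without combined replicate 2. Without combined replicate 1 the change was -2.88 rather than -2.21. EDNRB had 5 counts and 1 count.

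Calcineurin, the calcium-activated phosphatase that moves NFAT factors to the nucleus, had 28 listed genes with its partners. Of 26 tested, 11 were lower and none higher (median -0.98). RCAN1, an inhibitor of calcineurin that calcineurin itself induces, stood at 83.6, 78.0 and 84.9 CPM with endothelin-1 and 34.4, 25.2 and 29.6 CPM with both, without overlap (-1.54 ± 0.40, edgeR adjusted p = 0.0025). MYOZ2, a Z-disc protein that tethers calcineurin, stood at 118 to 127 CPM against 7.41 to 18.9 CPM (-3.26 ± 0.45, or -4.01 without combined replicate 2). The transcription factor gene MEF2A fell by 2.54 ± 0.40 and the calmodulin kinase gene CAMK2D by 1.21 ± 0.24. CALM2, a calmodulin gene, fell by 1.11 ± 0.23. At matched depth 5 genes of the list could be tested and 3 were lower, and RCAN1, MYOZ2 and MEF2A were not among the 5.

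Contractile genes split within each filament. With both compounds the atrial light chain MYL4 and troponin C were higher by several-fold, while cardiac actin, nebulette, ventricular light chain MYL2 and phospholamban were lower, and beta myosin MYH7 did not pass. In the thick filament list 4 of 17 tested genes were higher and 6 lower (median -0.43), and in the thin filament list 5 of 16 were higher and 6 lower (median -0.34). Among all genes 16.6% were higher and 17.8% lower (median -0.23). The thick filament split moved with the setting: 3 higher and 3 lower of 11 at matched depth (median 0.09), 2 and 7 without combined replicate 1, and 7 and 4 with the titles exchanged. The 16 cardiomyocyte markers were all detected and their summed level was 30441 to 32116 CPM with endothelin-1 and 22979 to 46421 CPM with both. Of these, 4 were higher and 9 lower, or 2 and 10 without combined replicate 1.

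MYL4, the light chain of atrial and fetal myosin (ENSG00000198336, chromosome 17, 47200446 to 47223679), stood at 2854, 2690 and 2648 CPM with endothelin-1 and at 20085, 9938 and 7629 CPM with both. Combined replicate 1, the smallest of the 6 libraries, was the highest, and the other 2 were still well above the endothelin-1 libraries (2.12 ± 0.33, 4.34-fold, edgeR adjusted p = 3.35e-06). TNNC1, the calcium-binding troponin subunit, stood at 1775, 1591 and 1670 CPM and at 8616, 4648 and 3787 CPM (1.68 ± 0.27, edgeR adjusted p = 5.7e-06). MYL7, the atrial regulatory light chain, went the other way, from 7637 to 8032 CPM down to 3475 to 5041 CPM (-0.95 ± 0.32). Its edgeR adjusted p of 0.020 became 0.065 without combined replicate 3 and was 0.058 and 0.054 without endothelin-1 replicates 1 and 2.

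ACTC1, the cardiac actin gene and among the most abundant sarcomere transcripts here (ENSG00000159251, chromosome 15, 34788095 to 34795726), stood at 5173, 4708 and 5180 CPM with endothelin-1 and at 309, 775 and 630 CPM with both. The groups were separated, and the fall was 3.12 ± 0.42 (8.71-fold, edgeR adjusted p = 2.98e-07). ACTA1, the skeletal actin gene that is re-expressed in hypertrophy, stood at 149, 159 and 169 CPM and at 11.5, 113 and 59.3 CPM. It fell by 1.21 ± 0.34 (edgeR adjusted p = 0.0058) but was called in only 10 of 20 thinnings, and without combined replicate 2 the change was -2.22. NEBL, the cardiac nebulin relative at the Z-disc, fell by 3.10 ± 0.33 and TPM1, the main cardiac tropomyosin, by 1.21 ± 0.29. MYL2, with 431 counts against 4, fell by 3.06 ± 0.51, MYBPC3, which encodes cardiac myosin-binding protein C, by 1.79 ± 0.29 (2.44 without combined replicate 1), and the myosin chaperone UNC45B by 2.69 ± 0.45.

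The 2 myosin heavy chain genes, neighbours on chromosome 14 with near-identical sequence whose reads may be shared, did not pass. MYH7, the beta chain, stood at 3323, 3033 and 3095 CPM with endothelin-1 and 4062, 2793 and 2201 CPM with both (-0.13 ± 0.25, edgeR adjusted p = 0.70). MYH6, the alpha chain, stood at 1061, 904 and 909 CPM and 980, 608 and 674 CPM (-0.43 ± 0.22, edgeR adjusted p = 0.13). Both overlapped between groups. MYH6 passed as lower without combined replicate 1 (-0.69, edgeR adjusted p = 0.023) and with DESeq2 (-0.43, adjusted p = 0.036). Without the libraries under 100000 counts, combined replicate 1 and vehicle replicate 2, both passed as lower, MYH6 at -0.64 and MYH7 at -0.38 (edgeR adjusted p = 4.2e-04 and 0.012). In bulk RNA, fewer cells of a type and less RNA per cell cannot be told apart, here and in the groups below.

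Z-disc genes were lower in 10 of 20 tested and higher in 2 (median -1.07). ACTN2, whose product is the tagged alpha-actinin, stood at 411, 400.3 and 390 CPM with endothelin-1 and 189, 145 and 170 CPM with both (-1.33 ± 0.23, edgeR adjusted p = 1.7e-05), without overlap. CSRP3, the muscle LIM protein of mechanical sensing, was at 248 to 272 CPM and at 44.1 to 45.8 CPM (-2.59 ± 0.35). CRYAB, the chaperone alpha-B crystallin, was at 193 to 246 CPM and 31.5 to 80.2 CPM (-2.33 ± 0.31). LDB3, another abundant Z-disc gene, did not pass (0.08 ± 0.19) and its values overlapped.

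Genes of calcium release and re-uptake were lower in 9 of 19 tested and higher in 2 (median -0.98). PLN, the gene of phospholamban, the brake on the calcium pump of the sarcoplasmic reticulum (ENSG00000198523, chromosome 6, 118548298 to 118560730), stood at 629, 652 and 680 CPM with endothelin-1 and at 34.4, 88.2 and 29.6 CPM with both. No library overlapped, and the fall was 3.61 ± 0.39 (12.2-fold, edgeR adjusted p = 3.19e-09), or 4.62 without combined replicate 2. The pump gene itself, ATP2A2, overlapped at 339 to 362 CPM and 208 to 791 CPM (0.22 ± 0.22, edgeR adjusted p = 0.46). SLC8A1, the sodium-calcium exchanger, was at 209 to 218 CPM and at 6.30 to 37.1 CPM (-3.56 ± 0.41, or -4.90 without combined replicate 3), and the release channel gene RYR2 at 270.0 to 304 CPM and 51.9 to 115 CPM (-2.00 ± 0.31). HRC, a calcium-binding protein inside the sarcoplasmic reticulum, was higher at 687, 328 and 252 CPM against 186, 176 and 158 CPM (1.12 ± 0.19, edgeR adjusted p = 2.4e-05). Among 12 tested ion channel and gap junction genes 4 were lower and 1 higher, including GJA1, the connexin of ventricular gap junctions (-1.69 ± 0.41), and the potassium channel gene KCNH2 (-1.74 ± 0.49). Without combined replicate 2 these were -2.50 and -3.16. At matched depth no ion channel or gap junction gene of the list could be tested.

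**Figure D4:**
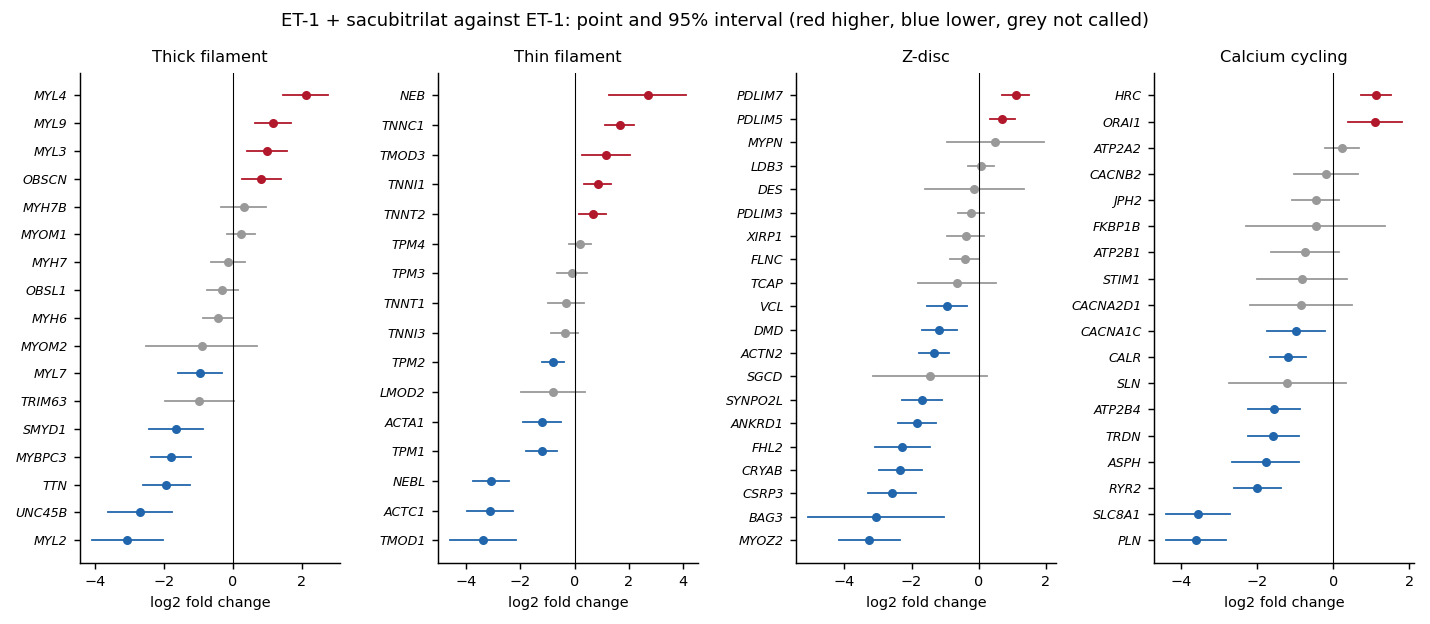
Log2 fold change of endothelin-1 plus sacubitrilat against endothelin-1 (x axis, point and 95% interval) for tested genes of 4 lists, red for called higher, blue for called lower and grey for not called. Genes with 0 counts in all 3 libraries of a group are left out. MYL4 (2.12) and TNNC1 (1.68) lie to the right while ACTC1 (-3.12), NEBL (-3.10) and PLN (-3.61) lie far to the left.

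Cardiac transcription factors fell in 7 of 16 tested genes and rose in none (median -1.18). At matched depth 5 could be tested and 3 were lower. MYOCD, the coactivator of SRF in heart and smooth muscle, stood at 386, 417 and 390 CPM with endothelin-1 and 115, 126 and 104 CPM with both (-1.82 ± 0.26, edgeR adjusted p = 8.1e-07). The groups were well apart. GATA4, GATA6 and MEIS2, factors of early heart development, fell by 1.98 ± 0.33, 2.44 ± 0.43 and 1.33 ± 0.28, with GATA6 at -3.19 without combined replicate 2. HAND2 did not pass, with combined libraries spread from 96.3 to 722 CPM around the endothelin-1 range of 200 to 256 CPM.

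Matrix genes were mostly lower. Of 38 tested of 43, 28 were lower and 3 higher (median -1.20), and at matched depth 13 of 23 were lower and 3 higher. Summed over the list, the level was 15360 to 16391 CPM with endothelin-1 and 5505 to 10325 CPM with both. The ligand gene TGFB1 moved the other way. TGFB1, the gene of transforming growth factor beta (ENSG00000105329, chromosome 19, 41301587 to 41353911), stood at 65.7, 67.9 and 73.3 CPM with endothelin-1 and at 206, 271 and 504 CPM with both. All combined libraries were above all endothelin-1 libraries (2.25 ± 0.22, 4.77-fold, edgeR adjusted p = 4.61e-10), and without combined replicate 3 the change was 1.63. VCAN, the proteoglycan versican of developing heart matrix, was at 647 to 728 CPM and 88.9 to 151 CPM (-2.58 ± 0.30), and FBN2, a fibrillin of elastic fibres, at 361 to 411 CPM and 74.1 to 115 CPM (-2.21 ± 0.26).

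Collagens did not move as 1 group. COL3A1, a fibrillar collagen, stood at 2837, 2760 and 3131 CPM with endothelin-1 and 871, 1606 and 1393 CPM with both (-1.19 ± 0.31, edgeR adjusted p = 0.0032). COL1A1 was at 2701 to 3159 CPM and 481 to 2082 CPM (-0.94 ± 0.34, edgeR adjusted p = 0.031), and its call was lost without combined replicate 1 (-0.63, edgeR adjusted p = 0.11). It was also lost without any single endothelin-1 replicate (edgeR adjusted p of 0.072 to 0.12). COL6A2, a chain of the beaded collagen VI, was higher at 309, 806 and 941 CPM against 193, 159 and 184 CPM (1.98 ± 0.21, edgeR adjusted p = 2.47e-09). Among fibroblast markers 7 of 12 tested were lower and 1 higher, with a summed level of 6916 to 7776 CPM against 2068 to 4641 CPM. The proteoglycan gene DCN fell by 1.89 ± 0.43, while THY1, a surface glycoprotein, was higher by 1.55 ± 0.30 (edgeR adjusted p = 0.062 without combined replicate 3). Smooth muscle markers were lower in 7 of 10 tested, with a summed level of 4539 to 4644 CPM against 1157 to 2597 CPM. The part of these cell types in the contractile and matrix results was not tested.

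Cell adhesion genes followed the same split within a family. Of 30 tested, 16 were lower and 2 higher (median -0.77). Laminin chains went opposite ways: LAMA5 fell from 175, 211 and 175 CPM to 11.5, 18.9 and 37.1 CPM (-3.01 ± 0.38), and LAMB2 rose from 305, 244 and 257 CPM to 699, 668 and 800.3 CPM (1.39 ± 0.16). CDH2, the N-cadherin of the intercalated disc, fell by 2.27 ± 0.29, and ITGA3, an integrin chain that binds laminin, rose by 1.59 ± 0.19. In all 4 genes the groups did not overlap. LAMA5 was at -3.72 without combined replicate 3 and CDH2 at -2.95 without combined replicate 2.

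Transcripts from the mitochondrial genome also diverged although they are cut from shared precursors. MT-CO3, a subunit of cytochrome c oxidase, stood at 18612, 20623 and 19187 CPM with endothelin-1 and 4431, 5167 and 5083 CPM with both (-2.04 ± 0.31, edgeR adjusted p = 2.39e-06). MT-ATP8, a small subunit of ATP synthase, stood at 3529, 3201 and 4113 CPM and at 24934, 16153 and 6914 CPM (2.07 ± 0.34, edgeR adjusted p = 1.02e-05). The first gene was lower and the second higher in every combined library. Of 13 such genes 4 were lower and 2 higher, beside 17.8% and 16.6% of all genes. In the weighted model 8 and 2 were, beside 14.6% and 17.8% of all genes. At matched depth 6 and 1 of 12 were, beside 21.2% and 25.2%. MT-ND4, the most counted, did not pass at 43541 to 71899 CPM with both against 47311 to 49342 CPM (0.32 ± 0.40), but passed as higher without the libraries under 100000 counts (0.50, edgeR adjusted p = 0.012). MT-ND6, the sole protein gene on the other strand, was higher by 2.48 ± 0.38 (1.77 without combined replicate 2) and MT-ND4L lower by 1.28 ± 0.24. Mitochondrial genes overlap and lie end to end, and the strand setting of the counting is unstated in these sources, so reads of neighbours cannot be told apart.

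Nuclear genes of the respiratory chain were higher in 15 and lower in 27 of 78 tested at full depth (median -0.36), 13 and 13 in the weighted model, and 12 and 5 of 49 at matched depth. Among all genes 16.6% were higher and 17.8% lower at full depth, and 25.2% and 21.2% at matched depth. The 4 smallest p belonged to complex I subunits that were higher. NDUFV1, the subunit that takes electrons from NADH, stood at 227, 227 and 251 CPM with endothelin-1 and 2177, 869 and 845 CPM with both (2.32 ± 0.23, 5.00-fold, edgeR adjusted p = 6.96e-10). NDUFS8, NDUFB7 and NDUFS5 rose by 1.49 ± 0.16, 1.68 ± 0.20 and 1.50 ± 0.18, with no overlap between groups.

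In glycolysis 2 of 24 tested genes were higher and 6 lower (median -0.28), beside 16.6% and 17.8% of all genes. At matched depth 1 of 14 was higher and 1 lower (median -0.03). GAPDH, a glycolytic enzyme often used as a reference gene, stood at 6249, 5849 and 5962 CPM with endothelin-1 and at 20431, 15988 and 19102 CPM with both. It was about tripled in every combined library (1.56 ± 0.30, 2.96-fold, edgeR adjusted p = 8.78e-05), and the summed list was at 11157 to 11601 CPM and 20529 to 24162 CPM. GAPDH has many processed pseudogenes, and reads could be split among them. PFKP and HK1, enzymes of the early steps, fell by 1.73 ± 0.26 and 2.11 ± 0.37.

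Ribosomal protein genes were higher in 15 and lower in 22 of 79 tested (median -0.23, the same as for all genes), or 15 and 14 of 78 at matched depth, while their summed level was 65391 to 67800 CPM with endothelin-1 and 78384 to 83172 CPM with both. RPL39 and RPL41, which encode the smallest proteins of the large subunit, were among those higher. RPL39 stood at 1197, 1168 and 1147 CPM and at 7260, 5272 and 5209 CPM (2.27 ± 0.25, edgeR adjusted p = 3.53e-09), and RPL41 at 1157, 1146 and 1116 CPM and at 7822, 5356 and 4657 CPM (2.31 ± 0.26). Both groups were far apart in each gene, and both genes have processed pseudogenes with which reads may be shared. RPS9 and RPL35 rose by 1.45 ± 0.21 and 1.34 ± 0.21. Mitochondrial ribosomal proteins had 12 higher and 6 lower of 75 tested, beside 16.6% and 17.8% of all genes, and 8 each without combined replicate 1. At matched depth 7 could be tested and 6 were higher, but low-count members can enter there through the group where they are higher. No direction is read from these few. The higher ones include MRPL23, MRPL28 and MRPL52, which rose by 2.05 ± 0.23, 1.97 ± 0.23 and 1.76 ± 0.22. In the translation factor list 6 of 37 were higher and 8 lower, again beside 16.6% and 17.8% of all genes. These were 4 and 5 without combined replicate 1, and 6 and 4 in the weighted model. EIF3G rose by 1.34 ± 0.17 and the abundant TPT1 fell by 1.09 ± 0.23.

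Stress and turnover genes were mixed. CDKN1A, the p53-induced inhibitor of the cell cycle, stood at 639, 717 and 702 CPM with endothelin-1 and 68.7, 113 and 104 CPM with both (-2.82 ± 0.27, 7.06-fold, edgeR adjusted p = 1.88e-10), without overlap, or -1.66 with the titles exchanged. Of 23 tested p53 targets 9 were lower and 1 higher (median -0.91), and ZMAT3, another target, fell by 1.53 ± 0.26 (2.35 without combined replicate 2). Of 40 tested cell cycle genes 4 were lower and 3 higher, both below the share among all genes, with CCND2 down by 1.54 ± 0.26 and the replication helicase gene MCM4 up by 2.37 ± 0.40 (1.79 without combined replicate 1). Chaperones of the endoplasmic reticulum were lower in 8 of 21 and higher in none (4 lower in the weighted model), with CALR at -1.18 ± 0.23 and P4HB at -1.02 ± 0.21.

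Among 22 tested cytosolic heat shock genes 9 were lower and 3 higher, beside 17.8% and 16.6% of all genes. At matched depth 4 of 9 were lower and none higher, beside 21.2% and 25.2% of all genes. HSPB1, the abundant small heat shock protein, was at 1662 to 1744 CPM with endothelin-1 and 401 to 826 CPM with both (-1.38 ± 0.28), while the near-identical inducible pair HSPA1A and HSPA1B rose by 2.97 ± 0.51 and 1.96 ± 0.32, reads of which may be shared. HSPA1A was at 2.10 without combined replicate 3. Lysosomal genes were higher in 8 and lower in 7 of 29 (median -0.14), beside 16.6% and 17.8% of all genes, and in 5 and 2 of 8 at matched depth (median 1.00, beside 0.05). Low-count members can enter the matched-depth test through the group where they are higher, so no direction is read from these 8. CTSD and CTSB, 2 cathepsin proteases, rose by 1.52 ± 0.18 and 1.13 ± 0.21, while PSAP, the precursor of the saposins, fell by 1.40 ± 0.21. GPX4, which reduces lipid peroxides, rose by 1.03 ± 0.17 and the peroxiredoxin gene PRDX1 fell by 1.02 ± 0.22. The chemokine gene CXCL12 fell by 1.77 ± 0.29, or 2.55 without combined replicate 1.

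**Figure D5:**
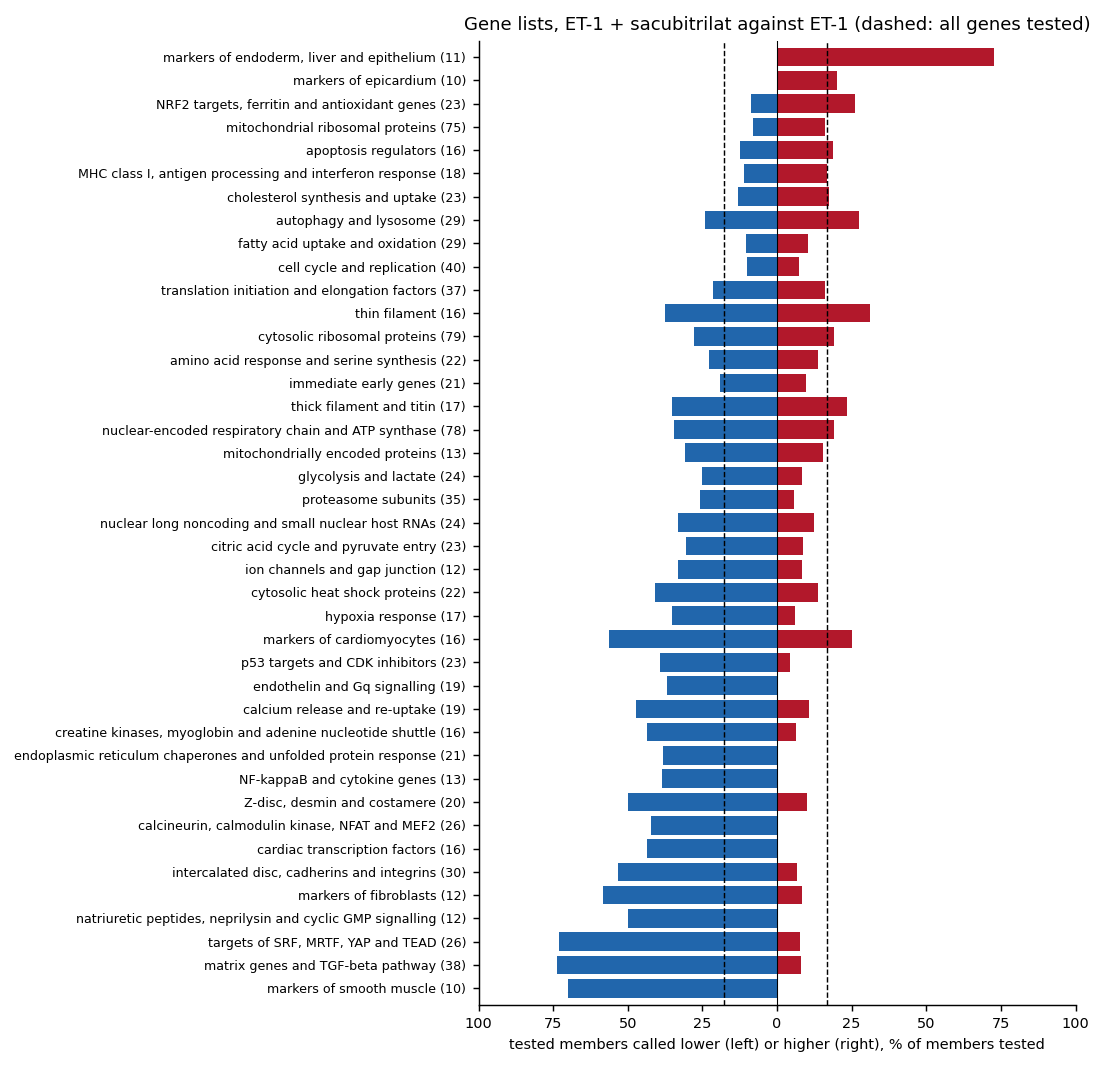
Share of tested members called lower (blue, left) or higher (red, right), in percent of the members tested (number in brackets), for each list with at least 10 tested members. Dashed lines mark 17.8% lower and 16.6% higher among all 11203 genes. Smooth muscle markers (7 of 10), matrix genes (28 of 38) and SRF, MRTF, YAP and TEAD targets (19 of 26) reach farthest left, and endoderm and epithelial markers (8 of 11) farthest right. The last share is partly set by the filter on low counts, which members could pass through groups where they were high.

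The genes with the largest rises relative to library total were not cardiac. PIGR, an epithelial receptor that carries immunoglobulins across cells (ENSG00000162896, chromosome 1, 206928518 to 206946466), stood at 16.8, 19.0 and 25.8 CPM with endothelin-1 and 252, 334 and 274 CPM with both (3.79 ± 0.27, 13.9-fold, edgeR adjusted p = 1.77e-13). ZNF121, a zinc finger gene (ENSG00000197961, chromosome 19, 9560353 to 9584533), stood at 80.3, 69.9 and 88.1 CPM and at 1398, 938 and 963 CPM (3.70 ± 0.21, 13.0-fold, edgeR adjusted p = 1.90e-16). In both genes all combined libraries were above 10 times the endothelin-1 mean. The others of the 8 largest rises had log2 fold changes of 3.50 to 3.77. They were AS3MT, which encodes an arsenic methyltransferase, and the readthrough gene BORCS7-ASMT that overlaps it and may share its reads. The zinc finger gene ZNF432, the long noncoding RNAs ZNF321P and XACT and the immunoglobulin light chain segment IGKC made up the rest.

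These genes were also high in the vehicle libraries and low with sacubitrilat alone. PIGR stood at 101, 346 and 170 CPM with vehicle and 17.1 to 24.3 CPM with sacubitrilat, and ZNF121 at 435, 1404 and 756 CPM and 83.0 to 113 CPM. Their level in CPM was thus high in both groups of low library total and low in both groups of high total. Summed counts of PIGR in the vehicle, endothelin-1, sacubitrilat and combined groups were 89, 102, 99 and 112. In the same order they were 381, 398, 432 and 401 for ZNF121, 72, 76, 98 and 82 for AS3MT, and 71, 84, 79 and 75 for IGKC. Counts of these genes thus did not grow in proportion to library total, and the reason was not tested. Of 247 tested genes with a symbol of the ZNF series, 66 were higher (26.7%) and 23 lower. Among the 37 of them with a mean of at least 50 CPM, 26 were higher and 4 lower, against 24.0% and 28.6% of all 3181 genes at that level. That mean is over all 6 compared libraries, so a gene low with endothelin-1 can pass the cut through the combined group. ZNF432 did so, with means of 14.3 CPM with endothelin-1 and 206 CPM with both. The count of 26 of 37 is therefore partly set by this cut.

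Long noncoding RNAs and pseudogenes leaned the same way. At a mean of at least 50 CPM, 72 of 123 long noncoding RNAs were higher and 16 lower, and 29 of 70 pseudogenes were higher and 8 lower. Members can pass this cut through the combined group alone, as XACT did, so these counts are partly set by it. Without the cut, 429 of 926 long noncoding RNAs and 175 of 317 pseudogenes were higher. The filter on low counts acts there in the same way. Among protein-coding genes at that level 657 of 2973 were higher and 883 lower. The abundant nuclear RNA MALAT1 went against this (ENSG00000251562, chromosome 11, 65497688 to 65506516), from 7637, 8372 and 7826 CPM to 814, 1392 and 1034 CPM (-2.90 ± 0.37, 7.45-fold, edgeR adjusted p = 7.66e-08). NEAT1, the scaffold RNA of paraspeckles, overlapped and did not pass (0.10 ± 0.22), and the small nucleolar host gene SNHG29 fell by 1.41 ± 0.21. H4C3, a replication-linked histone gene whose family is nearly identical in sequence, rose from 368, 222 and 430 CPM to 1799, 1020 and 1630 CPM (2.04 ± 0.24). At the same level, genes called higher had longest transcripts of 3325 bases in the median with 52.8% GC, genes called lower 3730 bases and 48.4%, and genes not called 3757 bases and 48.5% (GENCODE 29, with a length for 95.9% to 99.1% of them). The same cut chose these sets, and its part in these features was not tested.

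Markers of endoderm, liver and epithelium rose with these genes. Of 18 listed, 11 were tested, 8 were higher and none lower (median 2.89), from low levels: their sum was 248.8 to 285 CPM with endothelin-1, 806 to 962 CPM with both, 532 to 1484 CPM with vehicle and 213 to 286 CPM with sacubitrilat. EPCAM, an epithelial adhesion molecule, stood at 11.2, 14.9 and 7.56 CPM and at 115, 126 and 119 CPM (3.40 ± 0.36, edgeR adjusted p = 2.4e-09). SERPINA1, a protease inhibitor of liver, rose by 3.11 ± 0.36, and the apolipoprotein genes APOA2 and APOA1 by 3.28 ± 0.42 and 2.24 ± 0.30, with APOA2 at 3.87 without endothelin-1 replicate 2. Members at low levels with endothelin-1, such as EPCAM, could enter the test through groups where they were high. The count of 8 of 11 and its median are therefore partly set by the filter on low counts. At matched depth 2 of these markers could be tested and 1 was higher (median 1.01). KRT19, a keratin of epicardium and epithelium, rose by 1.44 ± 0.20, while the more abundant keratin gene KRT8 overlapped at 4965 to 5280 CPM and 1873 to 6581 CPM. Endothelial markers were near the floor, with 1 of 12 tested, and 5 of 12 skeletal muscle markers had no count in the 6 libraries. The part of other cell types in the results above was not tested.

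Among the 8 largest falls, beside CCN2, PLN, NPPB, SLC8A1 and ACTC1, were CAP2, an actin-binding protein of striated muscle (-3.69 ± 0.39, or -4.34 without combined replicate 2), the host gene SNHG32 (-3.21 ± 0.42) and DKK3, a secreted glycoprotein of the Dickkopf family (-3.13 ± 0.46). A further 68 genes with a symbol had 0 counts in the combined libraries and at least a 2-fold lower level by the floor of 3 counts over the group. CRMP1, with 217 counts with endothelin-1, was at least 5.54-fold lower, and ANP32E, PXDC1, SCYL2 and OSR1 at least 4.75-fold to 5.21-fold lower. In the other direction 1161 genes at 0 with endothelin-1 passed the same 2-fold bound, each with at most 6 counts over the combined libraries. Given the unequal totals, any count above 0 in the combined libraries passes this bound, so the number only tallies genes with a count there. TDRD15, with 6, stood 26.1-fold above the floor, a value that leaves out the counting error of those 6 counts. The steadiest abundant genes were CAVIN1, RPL17-C18orf32, RPS27A, MACF1, ELOB and RPS20, whose 95% intervals all lay within -0.398 to 0.404. CAVIN1, a coat protein of caveolae, stood at 572, 570.0 and 511 CPM with endothelin-1 and 538, 548 and 615 CPM with both. This steadiness is relative to the scaling, and a filter on a mean of at least 50 counts moved all fold changes by a median of 0.42, at which all of these but RPS27A passed as higher.

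The libraries without endothelin-1 show whether adding sacubitrilat made the same difference there. For NPPB it did not: sacubitrilat alone stood at 619, 630 and 780 CPM against 120, 24.7 and 82.0 CPM with vehicle, a rise of 2.78 ± 0.25 where the change with endothelin-1 present was -3.60. The difference between the 2 effects was tested as an interaction in the same model, and 5163 of 11203 genes (46.1%) were called, 2255 (20.1%) positive and 2908 (26%) negative. Sacubitrilat alone against vehicle gave 2228 called genes (19.9%), 972 higher (8.68%) and 1256 lower (11.2%). Of the 1859 genes higher when sacubitrilat was added to endothelin-1, 1006 (54.1%) were lower with sacubitrilat alone than with vehicle, which is 80.1% of the 1256 genes lower there, and none was higher. Of the 1995 lower genes, 692 (34.7%) were higher with sacubitrilat alone, 71.2% of the 972 higher there, and 4 were lower. The 2 comparisons share no library, and in both the side with the low library totals is the same side of these changes. Libraries of like total were compared in both compounds against vehicle, where 20 of 11203 genes (0.179%) were called, 9 higher (0.0803%) and 11 lower (0.0982%). All 6 of these libraries were small. Replicate differences per gene were 3.68 to 33.65 times counting noise between vehicle libraries and 3.8 to 20.2 times between combined libraries. Few calls there do not show that levels were alike.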

How the data were processed

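Stranded 3′-end libraries, primed with poly(dT) and carrying unique molecular identifiers, were made per the labels' protocols. The submitters' processing notes name fastp 0.24.0, featureCounts and GRCh38. Not given in the sources used here: aligner, annotation, identifier handling, strand setting. The authors deposited estimated counts per gene, partly fractional, together with CPM (count over library total). Of 78986 features, 92 spike-in sequences with no counts were left out. The tests used counts rounded to integers.

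All 12 libraries entered 1 edgeR 4.0.16 quasi-likelihood model (R 4.3.3, TMM, filterByExpr, group as the sole term, Benjamini-Hochberg, threshold 0.05). On simulated data with unequal spread, false calls exceeded the threshold in both this model and the weighted one. Alternatives were RLE scaling, other filters, DESeq2 1.42.0, limma-voom 3.58.1, the 6 libraries alone, thinning (20 draws), a replicate block, leaving out libraries or mitochondrial genes, exchanged titles and, added after the unequal spread was seen, group weights. The labels give the replicate number as batch. Same-numbered libraries of the compared groups had deviations with r of -0.0036 to 0.019 (-0.15 to 0.040 over 18 pairs of all groups).

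Named genes were a fixed panel, the 8 largest changes each way (mean of at least 50 CPM, no overlap, called after thinning), up to 4 called members of each of 46 lists by p and the 2 most abundant, the 6 steadiest genes above 200 CPM, and genes at 0 in a group. Some items are not reported here. The members and lists were chosen with earlier results of these data known. Coordinates are from GENCODE 29 by gene ID. Exact counting intervals and floors cover counting error only. Intervals on log2 fold changes rest on the SE of the edgeR model. Depth was 87281 to 1781653 counts in the 6 libraries. Plots used Python 3.11.15 with matplotlib 3.10.9.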

Additional observations from a re-analysis of the deposited data

Results flagged for a closer look

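In 12 of 14 tested panel genes the effect of sacubitrilat with endothelin-1 present differed from its effect without (edgeR interaction, Benjamini-Hochberg adjusted p under 0.05, n = 3 per group), where 46.1% of all 11203 tested genes were called. On the log2 scale the difference was -6.38 ± 0.41 for NPPB, -5.55 ± 0.44 for CCN2, -4.37 ± 1.14 for EDN1 and -3.69 ± 0.55 for EDNRA. It was -3.56 for both NPPA and ACTA2, -2.55 for ANKRD1, -2.47 for RCAN1, -2.31 for ACTA1 and -2.04 for ACTN2. MYH6 had the smallest, -0.82 ± 0.30 (edgeR adjusted p = 0.026), and TGFB1 had the opposite sign, 3.84 ± 0.34. The 2 estimates had opposite signs in each of these 12 genes, for example -4.16 ± 0.35 with and 1.39 ± 0.25 without endothelin-1 for CCN2, and 2.25 ± 0.22 and -1.59 ± 0.25 for TGFB1. The interaction sets the 2 groups of high library total against the 2 of low total, and the part of library total in it was not tested. NPR1 and MYH7 did not pass, with edgeR adjusted p of 0.76 and 0.62.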

How the results depend on the processing

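With a mean of at least 50 counts per gene, 2969 genes were tested and 1349 called, 712 higher and 637 lower. At matched depth 1409 were tested and 654 called, 355 higher and 299 lower. With no filter, 40745 were tested and 3302 were lower, and the calls of GAPDH, MYL9 and GPX4 were lost (1.07, 0.66 and 0.55, edgeR adjusted p of 0.061, 0.19 and 0.053). Under the filter on 50 counts, 5 calls were lost, among them GNA11, MYL7, ACTA1 and COL1A1, and EDN1 and COL1A1 were lost with DESeq2. Leaving out 1 library gave 2912 to 3154 calls, of which 1337 to 1573 higher and 1370 to 1809 lower. The replicate block gave 3594 calls (1759 higher, 1835 lower) and 4923 interaction calls, and changed none of the 131 gene calls checked. The settings moved all fold changes by medians from -0.48 (no filter) to 0.42 (mean of at least 50 counts). Exchanging the titles reversed MYH7, to 1.44 (edgeR adjusted p = 3.02e-05), and ended 6 of 115 calls, those of EDN1, RCAN1, MYL2, MYL7, COL3A1 and CXCL12. LDB3, ATP2A2, HAND2 and NEAT1 then passed as higher (0.50, 0.64, 0.91 and 1.51), and 28 of the 115 called genes moved by over 1.5-fold. Of 92 list counts, 60 moved by over 1.5 times at matched depth, where fewer members could be tested, 16 in the weighted model and 19 without combined replicate 1. No other gene named in the text changed its sign in a call under any setting. Low totals limit the combined group: genes under about 7.87 CPM there cannot be told from 0.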
